A study of Mus musculus with 36 samples.

Results

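The Wnt ligands, their receptors and co-receptors, the secreted Wnt antagonists and a few nuclear factors and targets of the pathway were followed across 36 RNA sequencing libraries of mouse bladder tumours and bladder tumour cell lines. Members were chosen by gene symbol, and the rule used no measured value. They comprised 50 of the 21705 genes in the table: 19 Wnt ligands, 10 Frizzled receptors, the 2 co-receptors Lrp5 and Lrp6, the 3 receptors Lgr4, Lgr5 and Lgr6, the 3 R-spondins Rspo1, Rspo2 and Rspo3, 6 antagonists that bind the ligand (Sfrp1, Sfrp2, Sfrp4, Sfrp5, Frzb and Wif1), 4 Dickkopf proteins, and the group of Tcf7, Lef1 and Axin2. The series compared 9 primary bladder tumours of UPPL mice with 11 primary bladder tumours of BBN mice, and added tumours grown from 3 cell lines (4 from UPPL1541, 2 from BBN963 and 4 from MB49) and 6 libraries of cultured cells: 1 each of UPPL1541, BBN963 and MB49, and 3 named KT. UPPL mice carry Upk3a-CreERT2, in which the promoter of the uroplakin gene Upk3a drives an inducible Cre recombinase, with p53f/f and Rosa26LSL-Luc, and are labelled untreated. BBN mice have the control genotype and received N-butyl-N-(4-hydroxybutyl)nitrosamine, a bladder carcinogen. UPPL1541 tumours have the UPPL genotype label, whereas the UPPL1541 culture, and all BBN963, MB49 and KT samples, have the control genotype and are labelled untreated. Tumours grown from 1 line share that origin, so p-values between them measure only the spread among these samples. UPPL1541 and BBN963 bear the numbers of 1 primary tumour each.

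Wnt proteins are secreted, lipid-modified ligands that bind a Frizzled receptor together with Lrp5 or Lrp6, after which beta-catenin escapes degradation and acts with TCF/LEF factors in the nucleus. R-spondins and their Lgr receptors sustain the signal by removing the ubiquitin ligases Rnf43 and Znrf3 from the cell surface. In contrast, Sfrp proteins, Frzb and Wif1 bind the ligands, and some Dickkopf proteins, Dkk2 among them, bind the co-receptors. Several negative regulators, Axin2, Nkd1, Notum, Rnf43 and Znrf3 among them, are themselves transcribed in response to beta-catenin and are widely read as feedback targets. In the bladder, Wnt ligands pass between the urothelium and the stroma beneath it.

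Values are the deposited gene estimates, called units here, in which 1000 stands for the upper quartile of a library's expressed genes. Libraries held 9.29 to 17.9 M recovered reads. The most frequent read count above 0 was 1 in cultures but 2 to 19 in tumours (19 in BBN963 tumour 1). It is no detection limit, because lower counts occurred too. In BBN963 tumour 1 a read was worth 1.27 units, and Lgr5 was listed at 6.35 units. Why the most frequent count was high was not tested, and low values in tumours are read with caution. Trp53, floxed in UPPL mice, was 75 ± 44.4 units (SD, n = 9) in UPPL and 1518 ± 550.0 (SD, n = 11) in BBN primary tumours, without overlap. The UPPL1541 culture, labelled with the control genotype, held 50.4 units, near the 93.3 ± 31.6 of the UPPL1541 tumours (SD, n = 4) and against 1059 to 3017 in the other 5 cultures, so its value goes against that label. The urothelial gene Upk3a was above 0 in 7 of 9 UPPL and 7 of 11 BBN tumours, and its levels overlapped. Summed over 10 epithelial markers, levels ran from 231128 to 528151 units in BBN and 98166 to 641150.0 in UPPL primary tumours, but only from 16190.0 to 26245 in MB49 tumours. Tumours UPPL1694 and UPPL1595 stood apart among the UPPL primaries. The former was the highest of the 9 in 22.4% and the lowest in 16.9% of 11414 genes, and the latter was the lowest in 24.7%. UPPL1595 also had the most genes at 0 of all libraries, 10024, and its commonest low value stood for 17 reads.

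In all, 12 members were above 0 in each of the 36 libraries: Wnt7b, Wnt9a, Wnt10a, Fzd1, Fzd2, Fzd5, Fzd6, Fzd7, Lrp5, Lrp6, Lgr4 and Axin2. Dkk4 and Wnt8a were listed at 0 in all 36, and 5 others were above 0 in only 1 or 2 libraries: Dkk1, Rspo2, Wnt1, Wnt8b and Wnt9b. Per kilobase of transcript, which allows genes to be compared, Wnt10a had the highest ligand level in BBN primary tumours, with a median of 661 (261 to 949) units per kb. Wnt7b came next with 475 (294 to 638) and Wnt4 followed with 286 (82 to 398), ranges that overlap their neighbours. In UPPL primary tumours the order was led by Wnt7b at 460.4 (228 to 734) units per kb, and Wnt5a at 272 (117 to 517) and Wnt10a at 271 (37.3 to 677) could not be told apart. Fzd6 was the leading Frizzled receptor per kilobase in both, at 677 (406 to 1809.6) in BBN and 699 (380.1 to 1007) in UPPL tumours, followed by Fzd7 at 219 (122 to 562) and 225 (82.4 to 358). Fzd1 came close to Fzd7 in BBN tumours, at 195 (146 to 531), and lay lower in UPPL tumours, at 83.6 (31.5 to 147). The R-spondins were near the floor: Rspo3, the most often detected, had a median of 5.51 units in BBN and 0 in UPPL primary tumours.

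**Figure D1:**
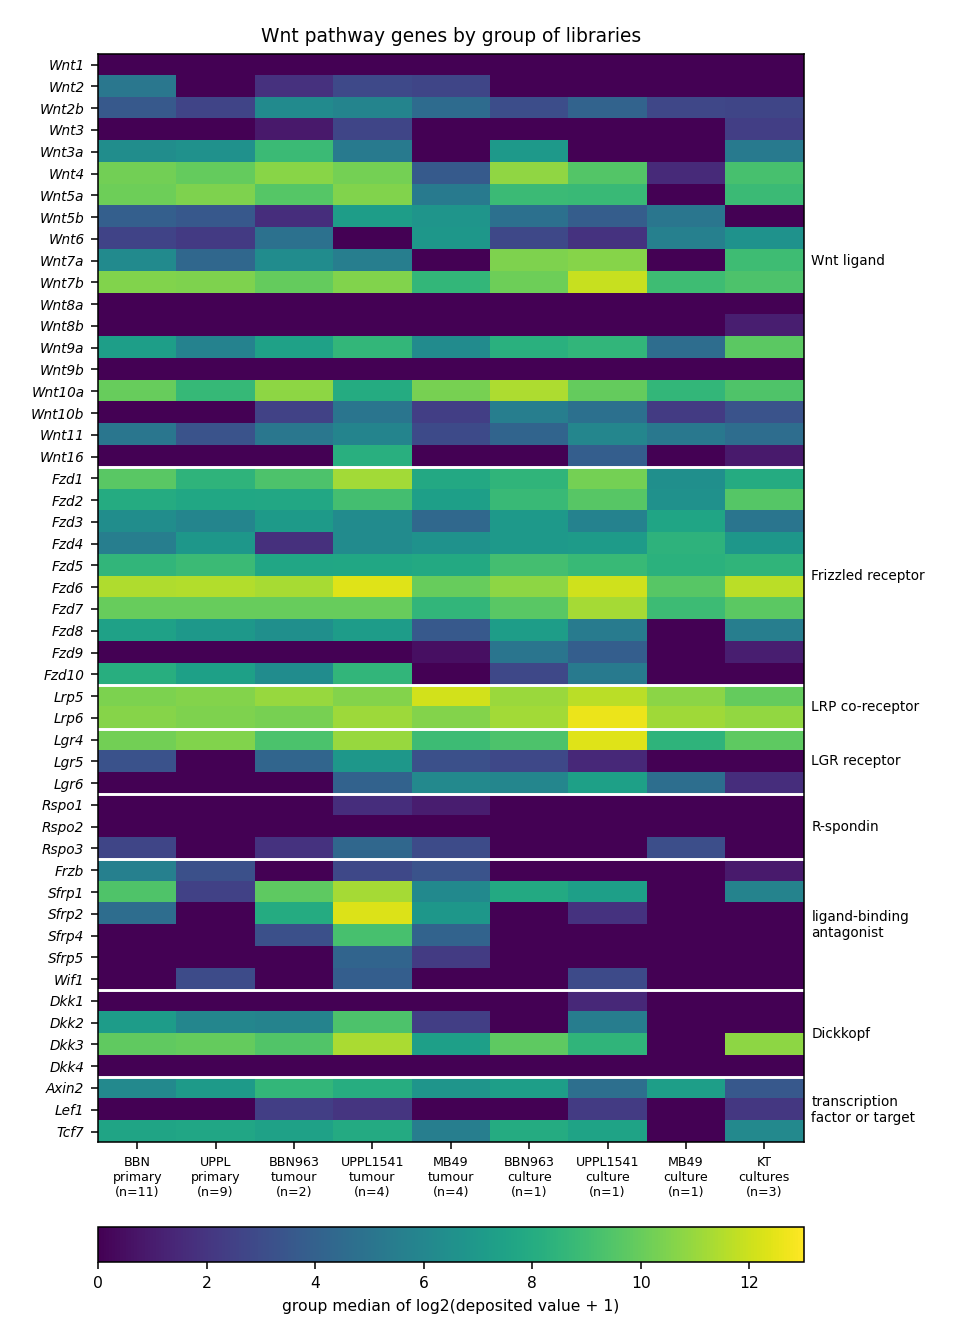
Group median of log2(deposited value + 1) for all 50 members (rows, ordered by role) in the 9 groups of libraries (columns, n below each name). Fzd6, Lrp5, Lrp6, Lgr4, Wnt7b and Wnt10a are bright in every group, Wnt4 is dark in MB49, and Sfrp1, Sfrp2 and Dkk2 are bright in UPPL1541 tumours.

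One UPPL primary tumour, UPPL1694, carried more RNA of several Wnt feedback genes than any other library. It was singled out after its values were seen, so it is described with no test. Axin2, a scaffold of the beta-catenin destruction complex, was at 3229 units in UPPL1694, against 29.6 to 311 (median 121) in the other 8 UPPL primaries and at most 428 in the other 35 libraries. Lgr5, a receptor for R-spondins and a marker of Wnt-dependent stem cells in several epithelia, was at 1644 units against 0 to 5.22, and its next highest library, a UPPL1541 tumour, had 224. Tcf7, which encodes the factor TCF1, was at 1113 against 171 to 329. The ligand Wnt6 was at 661 units against 0 to 21.1, and the receptor Fzd3 at 569 against 0 to 252. These 5 members were each highest in UPPL1694 among all 36 libraries.

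Several genes of the pathway outside the 50 members were also highest in that tumour. Nkd1, an inhibitor of Dishevelled, was at 1549 units in UPPL1694 against 0 to 62.5 in the other 8. Notum, which strips the lipid from Wnt proteins, was at 328 against 0 to 17.3. The ubiquitin ligase genes Rnf43 and Znrf3 were at 2305 against 13.2 to 262 and at 2169.8 against 319 to 517. For each of these 4 genes UPPL1694 lay above all other libraries. Tnfrsf19, a receptor gene known as a beta-catenin target, was at 5021 against 4.35 to 915, and Sp5, a transcription factor gene of the same kind, was at 64.9 with the other 8 listed at 0. The nuclear co-factor genes Bcl9 (1333 against 169.5 to 555) and Bcl9l (2253 against 662 to 1341) were also highest in UPPL1694 of all libraries. In all, 12 of 59 further pathway genes in the table had their highest value of the 36 libraries there. Among genes at or above 100 units in some library, that held for 5 of 35 members and 9 of 53 further pathway genes, and for 6.02% of all 13379 genes. Lef1 was listed at 0 in UPPL1694 and at most 10.8 in the other 8. Ccnd1, which encodes cyclin D1, lay within their range, at 3504 against 2183 to 9659. Myc, a target in colon epithelium, was at 481, its lowest value of the 36, against 1039 to 1930.0.

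Other members were low in the same tumour. Wnt10a was at 57.9 units, the lowest of all 36 libraries, against 97.4 to 1051 in the other 8 UPPL tumours. Wnt3a was listed at 0 against 37.2 to 320.5, Fzd8 was at 12 against 88.7 to 199, and Dkk3 at 234 against 765 to 1959.5. Counted over the 50 members, 10 lay above and 7 below all 8 others. Of the 27 members at or above 100 units in some UPPL primary tumour, 7 lay above and 7 below. Among all 11414 genes at that level the shares were 22.4% and 16.9%, so the counts do not set the members apart. The basal keratin genes were also low: Krt5 was at 10615 against 77502 to 324717, Krt14 at 2249 against 31196 to 236631 and the basal factor gene Trp63 at 2953 against 5084 to 8498. Krt8 (26205 against 3716 to 17712), Epcam (11013 against 1717 to 6291) and Upk3b (4372 against 453 to 3940.2) were high. Of the other 7 urothelial markers, Psca was low (2634 against 6209.9 to 25876) and 6 lay within the range of the other 8 tumours. Below all 8 others lay 5 of 14 fibroblast and matrix markers and 7 of 9 macrophage markers, while 1 macrophage marker lay above. Of smooth muscle markers 1 of 8 lay below. For endothelial, T cell and skeletal muscle markers it was 0 of 10, 0 of 8 and 0 of 8, and 1 T cell and 1 skeletal muscle marker lay above. The share of those 11414 genes below all 8 others was 16.9%. The part of these features in the Wnt values was not tested.

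**Figure D2:**
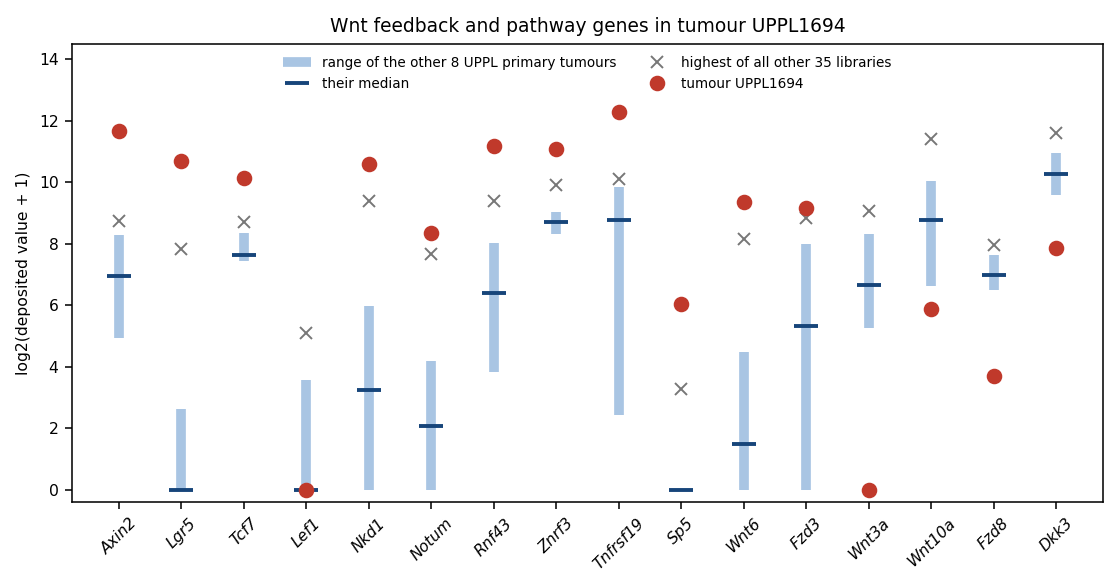
log2(deposited value + 1) of 16 Wnt pathway genes in tumour UPPL1694 (red), with the range (bar) and median (dash) of the other 8 UPPL primary tumours and the highest of the other 35 libraries (cross). The red point lies above every other library for Axin2, Lgr5, Tcf7, Nkd1, Notum, Rnf43, Znrf3, Tnfrsf19, Sp5, Wnt6 and Fzd3, and below the range of the other UPPL tumours for Wnt3a, Wnt10a, Fzd8 and Dkk3.

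Primary tumours of the 2 models were compared to see which pathway genes separate a genetically engineered from a carcinogen-induced bladder tumour. The antagonist genes Sfrp1 and Frzb, the receptor gene Fzd1 and the ligand gene Wnt10a were lower in UPPL tumours. A low level in a bulk tumour can reflect fewer cells of a type or less RNA in each, which cannot be told apart. Sfrp1 ranged from 0 to 1222 (median 4.78) units in the 9 UPPL tumours and from 288 to 1639 (median 695) in the 11 BBN tumours (log2 fold change -5.73, SE 1.00, limma adjusted p = 7.6e-04). In all, 8 of the 9 UPPL tumours lay below every BBN tumour and UPPL1591, at 1222, lay within the BBN range. Fzd1 ranged from 132 to 617 (median 351) in UPPL and from 614 to 2228 (median 820.1) in BBN tumours (log2 fold change -1.37, SE 0.26, limma adjusted p = 0.0014), again with 8 of 9 below every BBN tumour. Wnt10a ranged from 57.9 to 1051 (median 421) and from 405 to 1474 (median 1025) (log2 fold change -1.40, SE 0.42, limma adjusted p = 0.025), and the groups overlapped, with 4 UPPL tumours below every BBN tumour. Frzb, another Sfrp-like inhibitor, was the weakest call, from 0 to 23.9 (median 7.9) against from 1.1 to 207 (median 49.4) (log2 fold change -2.33, SE 0.79, limma adjusted p = 0.044).

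Of the 28 members tested, 4 were lower, 0 were higher and 24 did not pass, where 12.8% of all 12818 genes tested were lower and 5.71% higher (18.5% in either direction). Among the genes called over the whole table, 30.9% were in the higher direction as deposited, 50.1% after quantile scaling, 48.6% with median-of-ratios factors and 55.1% with edgeR. At an unadjusted p under 0.05, limma had 1 member higher and 8 lower. The median log2 fold change was -0.24 over the tested members and -0.19 over all genes. With edgeR on recovered reads Sfrp1 (-2.37, adjusted p = 0.12) and Wnt10a (-0.88, adjusted p = 0.14) lost the call, and the adjusted p ran up to 0.1 for Frzb over its alternatives. The Frzb call was also lost on leaving out any 1 of 13 of the 20 tumours. Only Fzd1 kept its call in every alternative run.

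The value of Axin2 in 1 tumour bears on this comparison. Axin2 ranged from 29.6 to 3229 (median 133) units in UPPL and from 23.6 to 301 (median 68.4) in BBN tumours and did not pass with limma (log2 fold change 0.89, SE 0.65, limma adjusted p = 0.35). With edgeR, Axin2 was higher in UPPL tumours (log2 fold change 2.17, edgeR adjusted p = 0.044), and without tumour UPPL1694 it was not (log2 fold change 0.49, edgeR adjusted p = 0.54). Fzd5, a receptor for canonical ligands, had from 280.4 to 1039 (median 467) units in UPPL and from 179 to 497 (median 376) in BBN tumours; it did not pass with limma (0.56, adjusted p = 0.1) but did with edgeR both with that tumour (0.74, adjusted p = 0.033) and without it (0.80, adjusted p = 0.025). The main ligands other than Wnt10a were not separated: the log2 difference was -0.19 for Wnt7b (95% interval -0.61 to 0.24), -0.36 for Wnt4 (-1.07 to 0.35) and 1.05 for Wnt5a (-0.27 to 2.36). The co-receptors Lrp5 (-0.09, -0.50 to 0.32) and Lrp6 (0.09, -0.30 to 0.49) had the narrowest intervals around 0.

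Among the 50 further pathway genes tested here, 2 were higher and 9 lower. Porcn, which encodes the acyltransferase that lipidates Wnt proteins, was lower in UPPL tumours (161 ± 94.8 against 458 ± 204 units, SD, n = 9 and 11; log2 fold change -1.62, SE 0.37, limma adjusted p = 0.0052). Prickle2, a planar polarity gene, was lower (-2.95, limma adjusted p = 0.0014), as was Myc (-1.11, limma adjusted p = 0.0023), and Gsk3b, a kinase of the destruction complex, was higher (1.00, limma adjusted p = 0.0025). Markers of other cells differed too: 6 of 9 macrophage, 3 of 8 smooth muscle, 2 of 12 tested fibroblast and matrix and 2 of 3 tested T cell markers were lower in UPPL tumours, and 4 of 8 urothelial, 2 of 10 epithelial and 1 of 10 endothelial markers were higher. The urothelial sum was 12346 to 86975 units in UPPL and 3132 to 24143 in BBN tumours. The summed fibroblast and matrix level was 458 to 7909.6 units in UPPL and 632 to 69817 in BBN tumours. The part of these cells in the Wnt values was not tested.

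Within the 11 BBN tumours, the level of several antagonists was set beside the matrix level, the mean log2(value + 1) of 14 fibroblast and matrix markers. By Pearson's r, 6 of 28 members had a permutation p under 0.05 before adjustment (two-sided, 100000 resamples), and by Spearman's rho 7. Fitted across all genes with limma, the relation gave 0 of 28 members after adjustment, beside 0.484% of 12806 genes in either direction and 0.484% higher. Before adjustment 6 members were higher with matrix and 1 lower, beside 5.91% and 1.05% of all genes. The permutation p of Pearson's r was 0.0041 for Sfrp1, 0.0041 for Sfrp2, 0.0065 for Frzb, 0.0067 for Dkk2 and 0.0069 for Wnt4, and that of Spearman's rho ran from 0.0046 to 0.015. Their limma adjusted p over all genes ran from 0.054 for Sfrp1 to 0.3 for Frzb. Sfrp1 (r = 0.83, rho = 0.80), Sfrp2 (r = 0.80, rho = 0.76), Frzb (r = 0.74, rho = 0.77) and Dkk2 (r = 0.76, rho = 0.80) had positive and Wnt4 negative coefficients (r = -0.73, rho = -0.73). Without the 2 tumours farthest from the median matrix level, r was 0.75 for Sfrp1, 0.68 for Sfrp2, 0.78 for Frzb, 0.84 for Dkk2 and -0.62 for Wnt4. In the 9 UPPL tumours 0 of 28 passed the limma fit, beside 0.00781% of all genes in either direction and 0.00781% higher (before adjustment 2 higher and 2 lower, beside 4.97% and 1.02% of all genes); by exact permutation tests before adjustment, 2 passed by Pearson's r and 1 by Spearman's rho. The plot of antagonists against matrix level shows Sfrp1 in 8 of the 9 UPPL tumours below every BBN tumour, while UPPL1591 lies among them; the part of matrix in that difference was not tested.

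**Figure D3:**
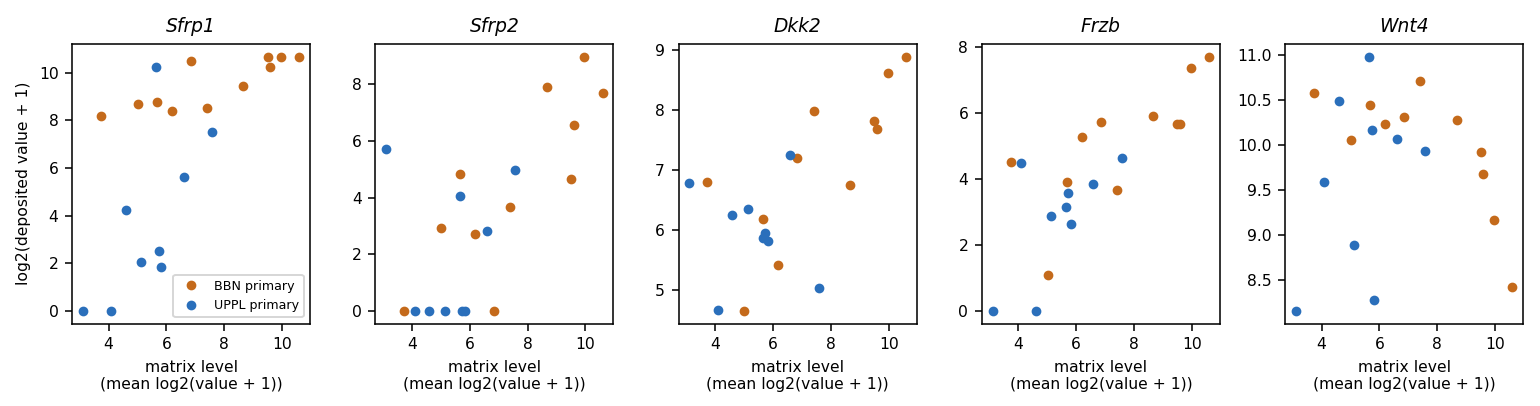
log2(deposited value + 1) of 4 antagonist genes and Wnt4 (vertical) against the matrix level, the mean log2(value + 1) of 14 fibroblast and matrix markers (horizontal), in 11 BBN (orange) and 9 UPPL (blue) primary tumours, 1 point per tumour. Among BBN tumours r is positive for Sfrp1, Sfrp2, Dkk2 and Frzb and negative for Wnt4.

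Tumours derived from the UPPL1541 and BBN963 lines were compared with those from MB49, a line widely used as a bladder tumour model, and with each other. Against MB49, 25 of the 40 members tested were higher in UPPL1541 tumours and 4 lower, beside 27.3% and 22.6% of all genes (49.9% in either direction), and the median log2 fold change was 2.28 over tested members against 0.05 over all genes. In BBN963 tumours 15 were higher and 4 lower than in MB49, beside 15.8% and 26.1% of all genes (41.9% in either direction); for BBN963 the higher share of all calls was 37.7% as deposited and 50.8% with edgeR. MB49 tumours serve both comparisons, so their counts are not independent. The groups also differed in cell content. Of 10 epithelial markers, 8 were higher and 2 lower in UPPL1541 than in MB49 tumours, and the counts were the same for BBN963. In UPPL1541 8 of 9 and in BBN963 9 of 9 macrophage markers were lower than in MB49. Skeletal muscle markers summed to 4633 to 15403 units in MB49 tumours and 45.9 to 734 in UPPL1541 tumours. The 2 BBN963 tumours had 29.2 and 9022 units, the latter within the MB49 range. Of 14 fibroblast and matrix markers, 10 were higher and 0 lower in UPPL1541 than in MB49 tumours. In BBN963 1 was higher and 0 lower than in MB49. The part of these cells in the Wnt values was not tested.

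Several ligands differed between the lines. Wnt4, a ligand of epithelia and their ducts, was at 1094, 1767, 1144 and 1375 units in the 4 UPPL1541 tumours, 1563 and 1762 in the 2 BBN963 tumours and 16.6, 0, 8.53 and 30.3 in the 4 MB49 tumours (log2 fold change 7.28, SE 0.84, limma adjusted p = 3.1e-05 for UPPL1541 against MB49). Wnt5a, the main non-canonical ligand, was at 1714, 1349, 1627 and 1349 in UPPL1541, 949 and 602 in BBN963 and 229, 21.3, 28.8 and 57.1 in MB49 tumours (log2 fold change 4.78, SE 0.58, limma adjusted p = 5.0e-05). Neither gene overlapped between MB49 and the other 2 lines. Wnt3a, the classical activator of beta-catenin, was at 537 and 393 in BBN963 and 44.2, 39.1, 39.7 and 27.4 in UPPL1541 tumours and was listed at 0 in all 4 MB49 tumours; the BBN963 tumours were above those of UPPL1541 (UPPL1541 against BBN963, log2 fold change -3.60, SE 0.61, limma adjusted p = 0.0017). Wnt7a was likewise listed at 0 in the 4 MB49 tumours and at 129, 63.9, 23.6 and 32.2 in UPPL1541 tumours (limma adjusted p = 2.6e-05). Wnt7b was present in all lines but lower in MB49, at 457, 308, 345 and 423, than in UPPL1541, at 1519.7, 1935, 1445 and 1298 (log2 fold change 2.01, SE 0.17, limma adjusted p = 3.5e-06).

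Some ligands went the other way or marked a single line. Wnt10a was the lowest in UPPL1541 tumours, 297, 188, 233 and 270.3 units, against 989.6, 1759.8, 1357 and 1228 in MB49 (log2 fold change -2.42, SE 0.20, limma adjusted p = 2.5e-06) and 1641 and 1885 in BBN963 (log2 fold change -2.85, SE 0.25, limma adjusted p = 3.5e-05). Wnt6 was at 42.7, 138, 102 and 143 in MB49, 26.6 and 28.2 in BBN963 and above 0 in only 1 UPPL1541 tumour, at 8.36. Wnt16, a ligand of bone and skin, was at 286, 207, 334 and 305 in UPPL1541 tumours, listed at 0 in both BBN963 tumours and at 10.4, 0, 0 and 0 in MB49 (log2 fold change 7.25, SE 0.82, limma adjusted p = 2.8e-05). Wnt5b separated BBN963, at 0 and 9.8, from both UPPL1541, at 147, 154, 78.2 and 164 (log2 fold change 5.32, SE 0.82, limma adjusted p = 0.001), and MB49, at 184, 83.1, 136 and 87.4.

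Most Frizzled receptors were also higher in UPPL1541 and BBN963 tumours. Fzd6, which acts in planar polarity, was at 5802, 5709, 4106 and 4756 units in UPPL1541, 2879 and 2244 in BBN963 and 972.9, 1122, 1076 and 894 in MB49 tumours, 3 groups without overlap (log2 fold change 2.32, SE 0.14, limma adjusted p = 2.4e-07 for UPPL1541 against MB49; log2 fold change 0.99, SE 0.18, limma adjusted p = 0.0024 for UPPL1541 against BBN963). Fzd10 was at 386, 353, 282 and 424 in UPPL1541 and 114 and 53.9 in BBN963 but at 0, 0, 2.13 and 0 in MB49 (log2 fold change 8.07, SE 0.55, limma adjusted p = 4.8e-07), again with no overlap between MB49 and the other 2 lines. Fzd7 was higher in both against MB49, by a log2 fold change of 1.56 in UPPL1541 and 1.45 in BBN963 tumours. Lgr4, the widely expressed R-spondin receptor, was at 2313, 2065, 1882 and 2077 in UPPL1541 against 515 and 792 in BBN963 (log2 fold change 1.70, SE 0.21, limma adjusted p = 2.5e-04) and 527, 470.3, 367 and 489.5 in MB49. Lrp5 was the one co-receptor that was higher in MB49, at 3190.4, 4829, 4469 and 4307 against 1741, 1321, 1290.1 and 1822 in UPPL1541 (log2 fold change -1.44, SE 0.16, limma adjusted p = 2.9e-05). Fzd4, a receptor of vessels and retina, was at 0 and 11 in BBN963 and 92, 44.3, 62.1 and 150.0 in UPPL1541 tumours (log2 fold change 4.52, SE 0.91, limma adjusted p = 0.0043). It was also lower in BBN963 than in MB49 tumours (log2 fold change -4.83, SE 0.91, limma adjusted p = 0.0014). In all, 7 of 9 tested Frizzled genes were higher in UPPL1541 than in MB49 tumours, beside 27.3% of all genes. In BBN963, 6 of 9 were higher and 1, Fzd4, was lower than in MB49, beside 15.8% and 26.1% of all genes.

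The antagonist genes Dkk2 and Sfrp4 were higher in UPPL1541 tumours than in those of both other lines, and Sfrp1 was higher than in MB49 tumours. Dkk2, an inhibitor of Lrp5 and Lrp6, was at 777, 239.9, 652 and 654 units in UPPL1541, 29.2 and 107 in BBN963 and 23.9, 3.37, 5.33 and 3.5 in MB49 tumours (log2 fold change 6.16, SE 0.68, limma adjusted p = 2.2e-05 for UPPL1541 against MB49). Sfrp1 was at 2293, 2606, 2282 and 2506 in UPPL1541, 1005 and 761 in BBN963 and 558, 46, 41.6 and 107 in MB49 tumours (log2 fold change 4.53, SE 0.65, limma adjusted p = 1.6e-04). Sfrp4 was at 981, 248, 589 and 587 in UPPL1541, 0 and 83.3 in BBN963 and 0, 18, 24.5 and 15.2 in MB49 tumours (log2 fold change 5.84, SE 1.33, limma adjusted p = 0.0037). For these 3 genes every UPPL1541 tumour lay above every tumour of the other 2 lines. Against BBN963 the log2 fold change was 3.22 for Dkk2 and 5.88 for Sfrp4 (limma adjusted p = 0.015 and 0.021), while Sfrp1 did not pass (log2 fold change 1.47, SE 0.79, limma adjusted p = 0.19). Sfrp2 was at 4438, 957, 6743 and 6048 in UPPL1541 tumours but at 1602 in MB49 tumour 1, so these groups overlapped (log2 fold change 4.44, SE 1.16, limma adjusted p = 0.0082). MB49 tumour 1 had the highest Sfrp1, Sfrp2, Dkk2 and Dkk3 of its group and also the highest fibroblast and matrix sum, 150887 units against 22212 to 38240.1 in the other 3. Its Sfrp4 was the lowest of the group, at 0 against 15.2 to 24.5. The sum was 97042 to 472510.0 in UPPL1541 and 99805 to 147444 in BBN963 tumours. By marker, 6 of 14 fibroblast and matrix and 3 of 9 macrophage markers were higher in UPPL1541 than in BBN963 tumours and 0 of either lower. The part of these cells in the antagonist levels was not tested.

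Target and nuclear genes were also compared. Axin2 was at 428 and 359 units in BBN963, 270.0, 66.5, 353 and 276 in UPPL1541 and 106, 113, 90.6 and 115 in MB49 tumours, and passed only for BBN963 against MB49 (log2 fold change 1.88, SE 0.56, limma adjusted p = 0.019), a call lost on leaving out either BBN963 tumour. Tcf7 was higher in UPPL1541 (log2 fold change 2.24, SE 0.33, limma adjusted p = 1.9e-04) and BBN963 (log2 fold change 1.82, SE 0.40, limma adjusted p = 0.0036) than in MB49. Between UPPL1541 and BBN963 tumours 12 of 40 members were higher and 3 lower in UPPL1541, beside 21.4% and 7.37% of all genes (28.8% in either direction). In that comparison the higher share of all calls was 74.4% as deposited, 49.8% after quantile scaling and 53.6% with edgeR. Of the further pathway genes, 31 of 55 were higher and 4 lower in UPPL1541 than in MB49, led by the cadherin gene Celsr2 (1542 ± 409 against 30.5 ± 3.82 units, SD, n = 4 each). Vangl2, another polarity gene, was listed at 0 in all 4 MB49 tumours, and Prickle2 was higher in UPPL1541 (5.10, limma adjusted p = 4.1e-07). Ccnd1, a known target, was lower in UPPL1541 than in MB49 tumours (log2 fold change -3.16, SE 0.16, limma adjusted p = 3.6e-08). Against BBN963, 16 further pathway genes were higher and 3 lower in UPPL1541, and BBN963 had 22 higher and 6 lower than MB49. Nkd2, which like Nkd1 binds Dishevelled, was higher in UPPL1541 than in BBN963 (4.19, limma adjusted p = 7.5e-04). Leaving out BBN963 tumour 1 ended the calls of Fzd1 (1.42), Dkk2, Sfrp4, Wnt6, Wnt7b and Lrp6 between UPPL1541 and BBN963.

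**Figure D4:**
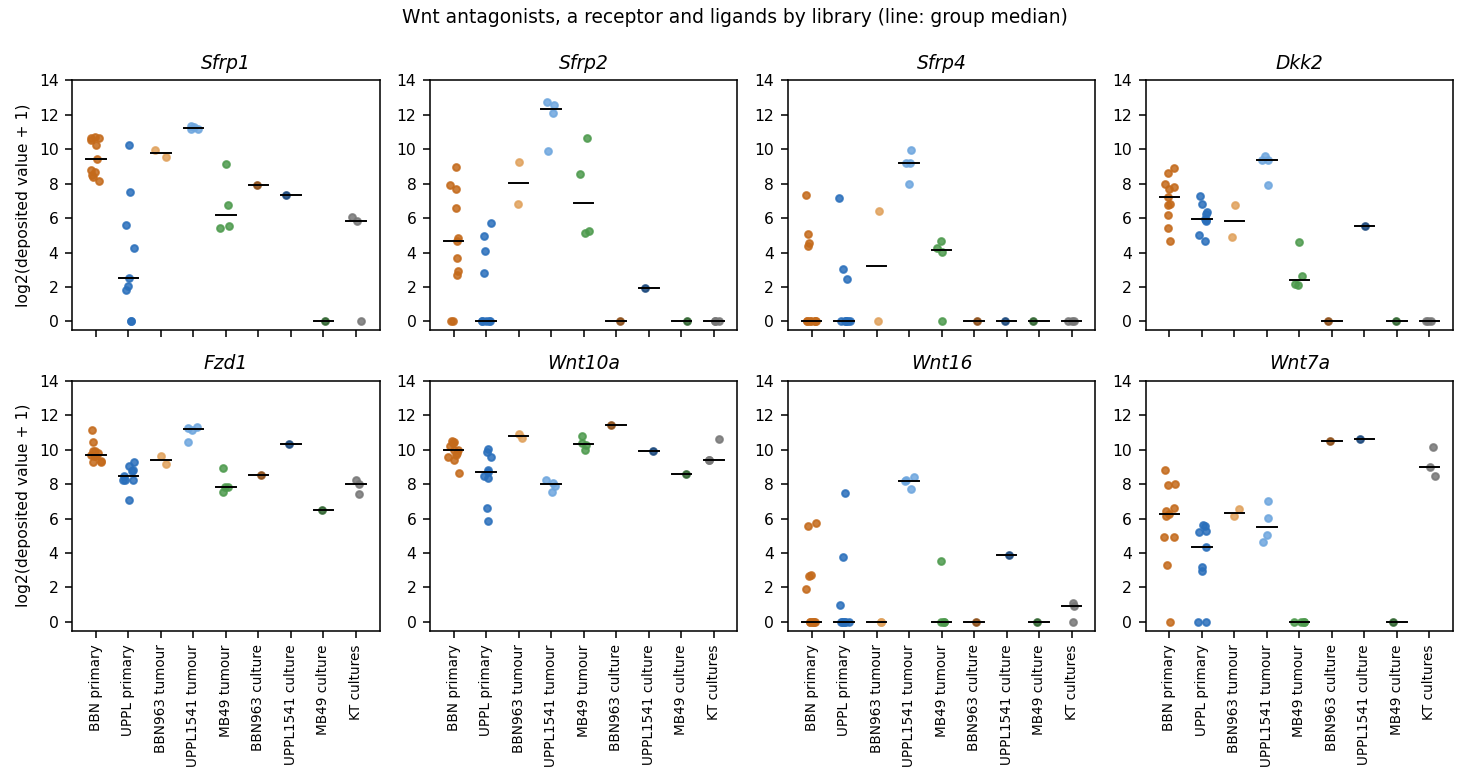
log2(deposited value + 1) of 8 members in every library, by group (1 point per library, line at the group median). The highest Sfrp1, Sfrp2, Sfrp4, Dkk2 and Wnt16 of all libraries are in UPPL1541 tumours, which have low Wnt10a, and Wnt7a is at 0 in all MB49 libraries.

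UPPL1541 tumours were then set beside the UPPL primary tumours, the model from which the line takes its name. The antagonist genes Sfrp1, Sfrp2, Sfrp4 and Dkk2 were higher in the line-derived tumours. Sfrp2 was at 4438, 957, 6743 and 6048 units in UPPL1541 tumours and from 0 to 51.1 (median 0) in the primaries (log2 fold change 9.87, SE 1.47, limma adjusted p = 2.3e-05). Sfrp1 (log2 fold change 7.45, SE 1.22, limma adjusted p = 7.0e-05) and Sfrp4 (log2 fold change 7.67, SE 1.48, limma adjusted p = 4.0e-04) had no overlap either, with primaries of at most 1222 and 142. Dkk2 was at 777, 239.9, 652 and 654 against from 24.6 to 152 (median 61) (log2 fold change 3.05, SE 0.63, limma adjusted p = 8.1e-04). Among receptors, Fzd1 was higher, at 2435, 1373, 2298 and 2507 against from 132 to 617 (median 351) (log2 fold change 2.57, SE 0.32, limma adjusted p = 2.9e-06), and Fzd5 was the only member that was lower, at 241, 189, 197 and 237 against from 280.4 to 1039 (median 467) (log2 fold change -1.28, SE 0.32, limma adjusted p = 0.0041). Among ligands, Wnt16 (6.76), Wnt5b (3.70), Wnt9a (2.44) and Wnt10b (4.81) were higher (limma adjusted p up to 0.0039). The Wnt16 call was lost with edgeR (3.55, adjusted p = 0.12); primary tumour UPPL1591 held 181 units and 6 primaries were listed at 0.

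In all, 15 of 43 tested members were higher and 1 lower, beside 20.5% and 5.98% of all genes (26.5% in either direction). The higher share of all calls was 77.4% as deposited, 48.8% after quantile scaling and 52.3% with edgeR. The median log2 fold change was 1.07 over tested members and 0.37 over all genes. All 14 fibroblast and matrix markers and all 9 macrophage markers were also higher in UPPL1541 tumours, with matrix sums of 97042 to 472510.0 against 458 to 7909.6 units in the primaries, ranges that do not meet. Of the T cell markers 4 of 8 were higher, whereas 6 of 8 urothelial and 4 of 10 epithelial markers were lower (1 of each higher). The urothelial sum was 5358 to 10479.8 against 12346 to 86975 units. Their part in the antagonist levels was not tested. Among further pathway genes 14 were higher and 6 lower, including the antagonist gene Sostdc1 (7.39), the glypican gene Gpc3 (6.53), Prickle2 (4.48) and Ctnnbip1, an inhibitor of beta-catenin (1.63), with limma adjusted p up to 0.0018. UPPL1541 tumour 2 had the lowest matrix sum of the 4, 97042, and the lowest Sfrp2, Sfrp4, Dkk2, Dkk3 and Fzd1, but the highest Sfrp1. The Lgr5 call held by limma with and without UPPL1694, but by edgeR it turned on that single tumour. The limma call was lost without UPPL1541 tumour 4. Lgr5 was at 80.0, 41.7, 175 and 224 in UPPL1541 tumours, at 1644 in UPPL1694 and at 0 to 5.22 in the other primaries (log2 fold change 4.84, SE 1.45, limma adjusted p = 0.015). Without UPPL1694 the log2 fold change was 5.93 (limma adjusted p = 1.2e-04). With edgeR it was -0.66 with that tumour and 6.11 without it (edgeR adjusted p = 0.83 and 0.0018).

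Few members separated BBN963 tumours from BBN primaries. Of 43 members 0 were higher and 2 lower (limma; 2 higher and 2 lower at an unadjusted p under 0.05, none by edgeR), beside 2.09% and 5.67% of all genes (7.76% in either direction), with a higher share of 26.9% of all calls as deposited and 42.9% with edgeR. Frzb was listed at 0 in both BBN963 tumours and ranged from 1.1 to 207 (median 49.4) in the primaries (limma adjusted p = 0.021), and Fzd4 was at 0 and 11 against from 5.05 to 252 (median 46.1) (log2 fold change -3.98, SE 1.15, limma adjusted p = 0.031). Without BBN963 tumour 1 the group holds 1 sample, assumed to vary like the other groups, and both calls were lost: the log2 fold change of Fzd4 went from -3.98 to -2.18 (limma adjusted p = 0.63), while Frzb was at 0 in the remaining tumour too (limma adjusted p = 0.22). The Frzb call was also lost without tumour 2.

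The difference between the models was then compared between settings, as the UPPL1541 minus BBN963 difference less the UPPL minus BBN difference in primaries. It passed for 5 of 43 members, all more positive in line-derived tumours, beside 8.16% of all genes in that direction and 1.06% in the other (9.22% in either). The positive share of all calls was 88.5% as deposited, 53.4% after quantile scaling and 47.1% with edgeR, and the median over all genes was 0.55 as deposited and 0.00488 after quantile scaling. The 5 members below stand at 3.02 or more. For Fzd1 the model difference was -1.37 in primaries and 1.65 in line-derived tumours (interaction 3.02, SE 0.53, limma adjusted p = 0.001). For Dkk2 it was -1.09 and 3.22 (interaction 4.31, SE 1.03, limma adjusted p = 0.01), and for Sfrp1 -5.73 and 1.47 (interaction 7.20, SE 1.98, limma adjusted p = 0.024). Wnt16, listed at 0 in both BBN963 tumours, and Wnt5b, at 0 in 1 of them, had interactions of 8.45 and 5.64, whose size depends on the added 1 (limma adjusted p = 0.011 and 0.015). Wnt10a was lower in the UPPL arm in both settings, -1.40 and -2.85, and its interaction did not pass (-1.44, limma adjusted p = 0.28). With BBN963 tumour 1 left out only Fzd1 passed, the Sfrp1 call was also lost without BBN963 tumour 2, and with edgeR only Fzd1 and Dkk2. Among further pathway genes 4 passed, all positive: Prickle2 (4.06), Nkd2 (5.88), the receptor gene Ror1 (5.53) and Celsr2 (2.30). By limma 0 members had a negative interaction that passed (1 at an unadjusted p under 0.05, 0 by edgeR).

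**Figure D5:**
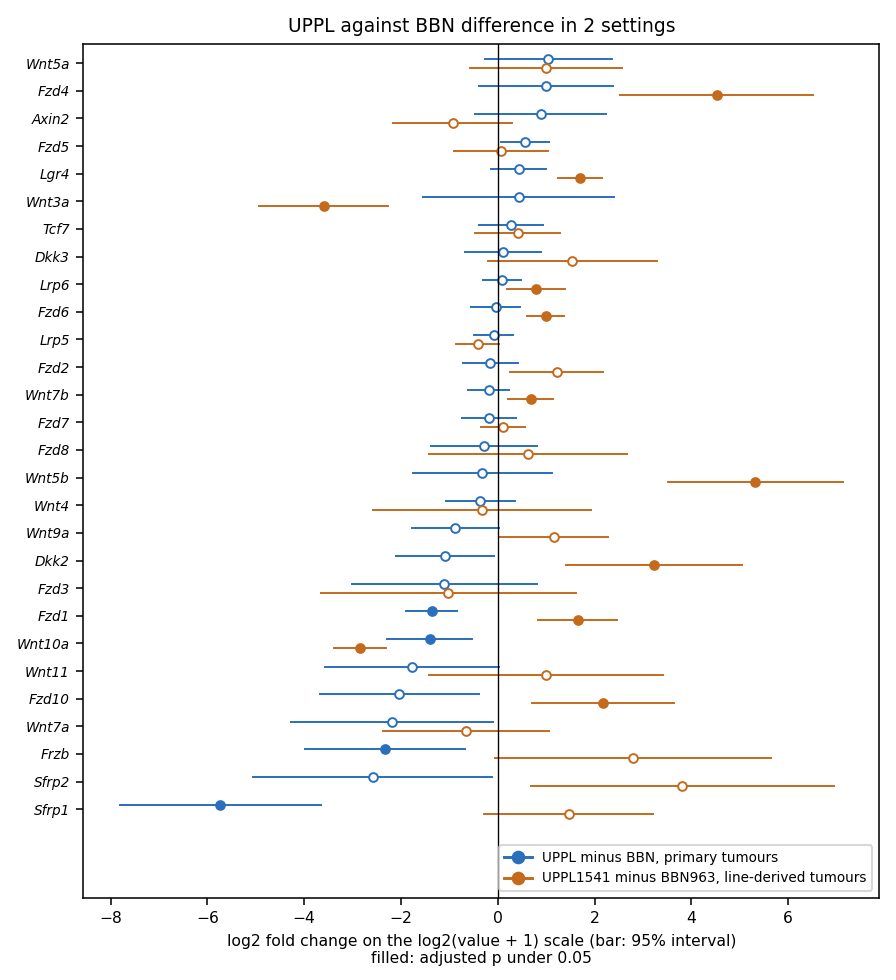
Log2 fold change of UPPL against BBN with its 95% interval for the 28 members tested in both settings: primary tumours (blue, n = 9 and 11) and line-derived tumours (orange, n = 4 and 2); filled points have an adjusted p under 0.05. Fzd1 changes side between settings, Wnt10a lies to the left in both, and Sfrp1 is far left among primaries only.

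The promoter windows of 4 of the 5 members that passed the interaction test are shown. Sfrp1 had no matched window. Whether these genes share regulation was not tested. Each runs from 250 bases before to 50 bases after the RefSeq gene start in the GRCm38.p6 build, which is not the mm9 build named for the deposited values, so it locates the gene and not a read. Capitals mark the TCF/LEF motif, searched as CTTTGAA and CTTTGAT on both strands.
Fzd1 (chr5:4758167-4758466, minus strand): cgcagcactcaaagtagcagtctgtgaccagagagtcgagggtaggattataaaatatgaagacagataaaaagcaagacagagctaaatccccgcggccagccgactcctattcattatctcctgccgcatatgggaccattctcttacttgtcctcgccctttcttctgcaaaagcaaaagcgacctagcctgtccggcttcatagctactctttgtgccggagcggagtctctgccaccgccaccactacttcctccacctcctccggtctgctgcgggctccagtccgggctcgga
Dkk2 (chr3:132085042-132085341, plus strand): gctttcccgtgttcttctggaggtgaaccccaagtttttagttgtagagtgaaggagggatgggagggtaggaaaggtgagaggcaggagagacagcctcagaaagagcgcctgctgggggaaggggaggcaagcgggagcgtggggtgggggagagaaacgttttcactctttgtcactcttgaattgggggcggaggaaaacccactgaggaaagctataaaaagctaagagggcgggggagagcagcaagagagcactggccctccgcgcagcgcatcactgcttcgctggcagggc
Wnt16 (chr6:22287977-22288276, plus strand): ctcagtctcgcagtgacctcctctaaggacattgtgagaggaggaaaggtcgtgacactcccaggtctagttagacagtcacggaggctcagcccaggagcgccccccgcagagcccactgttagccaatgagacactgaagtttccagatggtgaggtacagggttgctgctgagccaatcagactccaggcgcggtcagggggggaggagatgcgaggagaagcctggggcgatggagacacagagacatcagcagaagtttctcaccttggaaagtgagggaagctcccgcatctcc
Wnt5b (chr6:119449337-119449636, minus strand): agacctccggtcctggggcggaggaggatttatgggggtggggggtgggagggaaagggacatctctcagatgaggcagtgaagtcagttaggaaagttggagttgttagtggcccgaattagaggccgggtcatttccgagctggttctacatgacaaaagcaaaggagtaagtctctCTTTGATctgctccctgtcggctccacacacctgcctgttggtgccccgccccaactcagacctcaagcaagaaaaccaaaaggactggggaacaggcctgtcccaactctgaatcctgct
Of these only the Wnt5b window held a motif. Wnt5b has 3 windows in the table, and the window shown was picked because it holds the motif. Its other windows held 0, so the motif in the printed window is no result. Over the 33 of 50 members with a window, 3 of 40 windows (7.5%) held one, in Dkk1, Wnt11 and Wnt5b, beside 8.65% of all 32851 windows. The Axin2 window held neither motif, which says only that these letters are not in it. GC content was 54.0% for Fzd1, 57.7% for Dkk2, 58.0% for Wnt16 and 55.0% for Wnt5b, with a median of 52.7% over all windows.

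Finally, the 10 line-derived tumours were compared with the 3 cultures of the same lines, with line as a factor. Of 40 members tested, 10 were higher in tumours and 5 lower, beside 20.1% and 8.99% of all genes (29.1% in either direction), with a higher share of 69.1% of all calls as deposited and 45.4% after quantile scaling. Sfrp2 was at 2.8 units in the UPPL1541 culture and listed at 0 in the other 2, below all 10 tumours (log2 fold change 8.46, SE 1.07, limma adjusted p = 7.7e-05). Sfrp1 was at 162 in the UPPL1541 culture, 239.7 in BBN963 and listed at 0 in MB49 (log2 fold change 4.29, SE 0.79, limma adjusted p = 0.0015). Dkk2 was at 44.8 in the UPPL1541 culture and listed at 0 in the other 2 (log2 fold change 3.99, SE 0.74, limma adjusted p = 0.0015). Wnt7a went the other way, at 1579.8 in the UPPL1541 and 1436 in the BBN963 culture, above every tumour of those lines (log2 fold change -2.97, SE 0.84, limma adjusted p = 0.018), as did Wnt7b (-0.68) and Lrp6 (-0.97). Without the UPPL1541 culture 6 of the 15 calls remained, and those of Wnt7a, Wnt7b, Lrp6 and Sfrp4 were lost. Fibroblast and matrix markers (14 of 14), endothelial (10 of 10), macrophage (9 of 9) and T cell markers (8 of 8) were all higher in tumours, and 7 of the 14 matrix markers were at 0 in the BBN963 culture. Their part was not tested. Of 5 listed target genes tested, Tnfrsf19 was higher in tumours (5.14, limma adjusted p = 3.7e-04), and Cd44 (-0.68, limma adjusted p = 0.028) and Ccnd1 (limma adjusted p = 0.044) were lower. Ccnd1 was at 9571 ± 9191 units in the 10 tumours and 13164 ± 7647 in the 3 cultures (SD, n = 10 and 3), but in MB49 it was at 20076 ± 2754 in tumours (SD, n = 4) and 16799 in the culture. Of all 55 further pathway genes tested, 12 were higher in tumours and 6 lower, beside 20.1% and 8.99% of all genes. The 10 further antagonists among them gave 5 higher and 1 lower. The higher ones included the feedback gene Nkd1 (4.32, limma adjusted p = 0.0021) and Apcdd1 (2.81, limma adjusted p = 3.4e-05).

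The 3 KT cultures, whose name the labels do not explain, held Fzd6 (8189.7, 3200.2 and 1569.8 units), Wnt9a (1217, 711 and 846), Dkk3 (1782, 1799.8 and 1932) and Wnt6 (282, 97.9 and 88.9). Sfrp2, Sfrp4, Dkk2, Lgr5 and Wnt5b were listed at 0 in all 3. KT1044 held 3835 units of Wnt7b, next to 3827 in the UPPL1541 culture, against 653 and 601 in the other 2, and its Axin2, 199, was above their 11 and 2.67. MB49 was at 0 for Wnt5a, Tcf7, Dkk3 and Fzd8 in culture, while its tumours held 229, 21.3, 28.8 and 57.1 units of Wnt5a.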

How the data were processed

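RNA was extracted with a Qiagen RNeasy kit and sequenced from TruSeq stranded mRNA libraries, per the labels. The deposited table holds a normalised expression signal per gene; it was made by the authors with RSEM on mm9, with SAMtools and Picard 1.64 also named, per the submitters' processing notes. The aligner and annotation are not given in the sources used here. From the values, each library was scaled so that its upper quartile is about 1000. Dividing by the smallest step gave whole reads for 92.0% to 96.3% of all values above 0 (tolerance 0.02), 9.29 to 17.9 M reads per library.

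Genes at 10 or more in as many libraries as the smallest group has (3 where cultures were fitted) were tested on log2(value + 1). The test was limma 3.58.1 (trend), adjusted by Benjamini-Hochberg over all genes at a threshold of 0.05. Fold changes are on that scale, which understates low genes. Separate fits of primary tumours, line-derived tumours, both together, and line-derived tumours with cultures (line as a factor) gave the comparisons. Matrix correlations used permutation tests per member, and a limma fit of all genes on the matrix level. Members that passed were named, up to 10 by smallest adjusted p per comparison and others of their families, with up to 4 further pathway genes; genes of UPPL1694 were picked after their values were seen. Alternatives were pseudocount 10, no filter, a filter at 100, quantile and median-of-ratios scaling, 1 fit of all 36 libraries, a replicate block and leaving out each library. Added after seeing the data were that limma fit, edgeR 4.0.16 quasi-likelihood on recovered reads, with and without UPPL1694, and leaving out 5 libraries whose commonest low value was 10 or more reads. On simulated log-normal values with a log2 change of 2, the primary comparison recovered 96% of changed genes and the interaction 71%. The changed genes were at or above 100 units in every library fitted, so these shares do not hold for members with lower values. Versions were R 4.3.3 and Python 3.11.15. Promoter windows came from a RefSeq table (GRCm38.p6) and were matched by symbol. The members and lists were chosen with earlier results of these data known. One further allele in the UPPL genotype label is not reported here.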

Additional observations from a re-analysis of the deposited data

Results flagged for a closer look

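In groups of 4 to 10 libraries, 18 of 91 group and gene pairs held a library whose gap to others passed Dixon's 95% limit. The usual chance rate of about 1 in 20 is no yardstick here, because the pairs share libraries and some genes were near 0. In UPPL primaries, Lgr5, Wnt6, Wnt16 and Sfrp4 stood out through 1 library each, with at most 5.22, 21.1, 12.7 and 7.14 units in the others. The count is therefore descriptive, and no excess over chance is drawn from it. Tumour UPPL1694 gave 7 of the 18 pairs. Its Axin2 at 3229 units, Lgr5 at 1644, Tcf7 at 1113 and Wnt6 at 661 were far above the other 8 UPPL primary tumours. Its Dkk3 at 234, Fzd8 at 12 and Wnt3a at 0 were far below. Among the other UPPL primary tumours, UPPL1595, whose commonest low value stood for 17 reads, was low for Fzd1 (132) and Lrp5 (569.6). UPPL1591 was apart for Fzd7 (374) and Wnt16 (181), and UPPL1612 was high for Sfrp4 (142). UPPL1541 tumour 2 was apart from the other 3 for Axin2 (66.5), Dkk2 (239.9), Fzd1 (1373) and Wnt2b (6.52), and it also had the lowest matrix sum of the 4, whose part was not tested. UPPL1541 tumour 3 was low for Wnt5b (78.2), and MB49 tumour 1 was listed at 0 for Sfrp4.

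The UPPL against BBN difference was more positive in line-derived than in primary tumours by the interaction test for Dkk2 (4.31 on the log2 scale), Fzd1 (3.02), Sfrp1 (7.20), Wnt16 (8.45, with BBN963 listed at 0) and Wnt5b (5.64). Only 2 BBN963 tumours stand behind these values, and without the first of them only the Fzd1 call was kept.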

How the results depend on the processing

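Over 105 calls of single members, 2172 of 2402 alternative values kept direction and call, 229 lost the call and 1 reversed: Lgr5 in UPPL1541 against UPPL primary tumours, -0.66 with edgeR. Of 241 alternative counts, 226 stayed within 1.5 times. The others, leaving out single libraries aside, were as follows. UPPL1541 against BBN963 gave 7 calls in 1 fit of all 36 libraries. BBN963 against BBN primary tumours gave 1 with a pseudocount of 10, 0 with edgeR and 0 without the 5 libraries whose commonest low value was 10 or more reads. The interaction gave 9 with a pseudocount of 10, 2 with edgeR and 1 without those 5. The primary comparison gave 2 by edgeR without UPPL1694, and the Spearman count against matrix in BBN tumours, adjusted over the 28 members and 0 as computed, was 1 with median-of-ratios factors. Leaving out 1 library gave 3 to 5 calls between primaries, 25 to 29 for UPPL1541 against MB49, 10 to 18 against BBN963 (lowest without BBN963 tumour 1), 14 to 21 for BBN963 against MB49, 12 to 18 for UPPL1541 against UPPL primaries, 0 to 2 for BBN963 against BBN primaries and 1 to 6 for the interaction (lowest of both without BBN963 tumour 1), 6 to 15 against cultures (lowest without the UPPL1541 culture), and 0 to 4 and 0 to 0 for matrix in BBN and UPPL tumours. With the replicate block the 3 line comparisons gave 28, 11 and 18 calls, against 29, 15 and 19 without it. The numbers are only shared: correlations in 8 same-number pairs ran from -0.093 to 0.066, and 1 of 10 tumours correlated best with its own number. Low levels limit what can be seen in tumours whose commonest low value stands for several reads.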
